A study of Sus scrofa with 12 samples.

Results

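A set of genes that mark macrophages was followed in pig fat cells and ovarian granulosa cells, as isolated and after growth in culture. The 6 markers were CD74, C1QC, LAPTM5, CD163, CD14 and GPNMB, out of 6765 genes that the array's annotation names by a single symbol. They were read by 13 of the 23999 probe sets tested, and the probe set with the highest mean over the 12 arrays stood for each gene. On this array the probes that read 1 transcript form a probe set, which gives 1 value. All values below are log2 expression values, so a difference of 1 is a doubling.

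RNA was measured on the Affymetrix porcine genome array in 4 groups of 3 arrays. Dedifferentiated fat cells (DFAT) had been grown from mature adipocytes by ceiling culture, where buoyant fat cells settle on the upper wall of a filled flask, and were taken at semiconfluence. Mature adipocytes (MA) were isolated from fat tissue. Dedifferentiated granulosa cells (DFOG) were follicular granulosa cells grown in vitro to semiconfluence, and granulosa cells (GC) came directly from ovarian follicles. The sample titles use the words biological replicate but name no animals or cultures, so the p-values describe the spread among these arrays, which may be partly technical. The labels give no breed, age or sex, and do not say how the cells were isolated. DFOG replicates 2 and 3 were nearly identical (SD of their differences 0.07, against 0.31 to 0.62 in the 11 other pairs of a group) and were counted as 1 sample, their mean, so DFOG has n = 2.

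Macrophages are the phagocytes that live in most tissues. In fat tissue they sit between the adipocytes, take up dead cells and lipid, and present antigen, and their number is known to grow in obesity. CD74 is the chain that holds MHC class II molecules until they are loaded with peptide. C1QC is a chain of C1q, which starts the classical complement pathway and is made largely by macrophages. CD163 takes up haemoglobin bound to haptoglobin. CD14 binds bacterial endotoxin and passes it to the receptor TLR4. LAPTM5 is a lysosomal membrane protein of white blood cells, and GPNMB is a glycoprotein of lysosomes and melanosomes that lipid-laden macrophages and pigment cells make.

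The isolated and cultured cells carried their labelled identity in part. ADIPOQ, the adipocyte hormone adiponectin, averaged 5.78 ± 0.94 in DFAT and 13.99 ± 0.28 in MA (SD, n = 3 each), and 11 of 12 measured adipocyte genes were higher in MA than in GC. INHA, a subunit of the hormone inhibin, averaged 7.44 ± 0.22 in DFOG (SD, n = 2) and 14.64 ± 0.21 in GC (SD, n = 3), and 9 of 12 granulosa genes were lower in MA than in GC. FOXL2, CYP19A1 and INHBA did not separate GC from MA. Of all named genes 26.8% were higher in MA than in GC and 22.6% lower. On the 12 arrays the lower quartile of all probe sets lay between 4.38 and 4.61, and the median between 6.36 and 6.49. The files hold no detection calls, so values near or under the lower quartile cannot be told from background. In bulk RNA, fewer cells of a type and less RNA per cell cannot be told apart.

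All 6 markers were higher in MA than in GC, and 5 of the 6 fell in DFAT, by 3.87 to 12.1 times. The exception was CD14. CD74, C1QC, LAPTM5 and CD163 were near or under the lower quartile in DFAT, so their folds are likely understated and the sizes of the changes cannot be ranked. C1QC, LAPTM5 and CD163 had similar low values in DFAT, DFOG and GC. CD74 was also lower in those groups than in MA, but its DFAT arrays lay below its GC arrays, a comparison that was not tested. CD14 and GPNMB rose when granulosa cells were grown in culture. None of the 6 passed the test between DFAT and DFOG. Of all probe sets 16.4% were lower in DFAT than in MA, as were 20.4% of named genes, and 15.7% of probe sets and 20.7% of named genes were higher, with no marker among them. The median log2 change of the 6 markers was -2.77, against -0.07 over all probe sets. The markers were chosen with earlier results of these data known, and each is read by its brightest probe set. Medians of the 6, here and below, are thus descriptive and no test. Over the mean of a gene's probe sets LAPTM5 changed by -1.27, against -2.48, and CD163 by -1.12, against -1.95.

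Of all probe sets 20.7% were higher in MA than in GC, as were 26.8% of named genes, while 19.7% of probe sets and 22.6% of named genes were lower. The median of the 6 markers was 2.46, against 0.07 over all probe sets. Between DFOG and GC, 12.3% of probe sets were higher in DFOG, as were 17.3% of named genes, and 2 of the 6 markers were, while 12.6% of probe sets and 13.4% of named genes were lower. The share lower in DFAT than in DFOG was 4.31% of probe sets and 5.5% of named genes, and the share higher was 3.7% and 4.86%, with 0 of the 6 markers past limma's test in either direction and 0 at an unadjusted p under 0.05. DFAT minus MA and MA minus GC share the MA arrays, so the falls in DFAT and the excess over GC are not independent of each other. With the arrays centred on their poly-A spike-in controls, which moved all differences of a comparison by the same amount, the calls of CD14 in DFOG minus GC and of CD14 and CD163 in MA minus GC were lost.

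Every DFAT array lay below every MA array for 5 of the 6 markers, as for 23.8% of all probe sets. Every MA array lay above all other samples for the same 5, as for 13.4% of all probe sets.

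**Figure D1:**
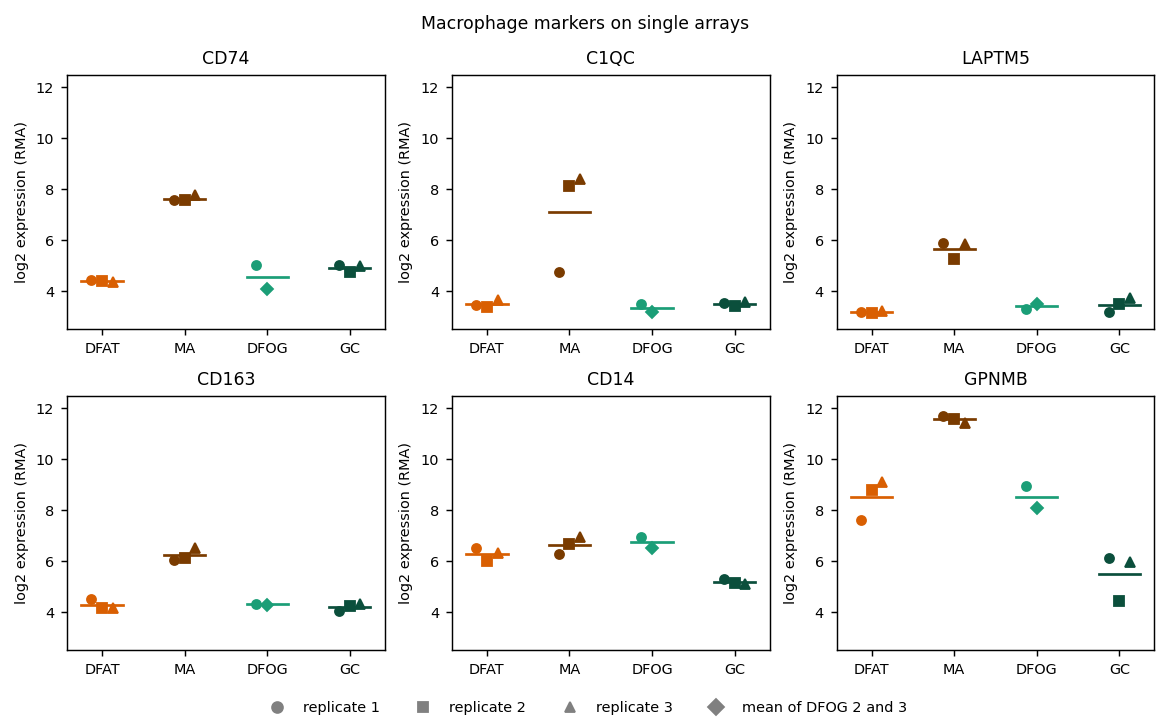
Log2 expression of the 6 macrophage markers on single arrays (points, with the shape giving the replicate) in DFAT, MA, DFOG and GC, with the group mean as a line. MA stands above the other groups for CD74, C1QC, LAPTM5, CD163 and GPNMB, with C1QC at 4.74 in MA replicate 1 and at 8.12 and 8.40 in the other MA arrays, while CD14 is low only in GC.

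CD74 gave the tightest separation. Its log2 level was 4.43, 4.41 and 4.34 in the DFAT arrays, against 7.56, 7.57 and 7.77 in the MA arrays. DFOG had 5.03 in replicate 1 and 4.09 in the mean of replicates 2 and 3, against 5.03, 4.74 and 4.97 in GC. The MA arrays differed among themselves by at most 0.21, and lay above every other sample. DFAT lay below GC, and DFOG overlapped both. CD74 fell in DFAT by 9.44 times (log2 change -3.24 ± 0.22 SE, limma adjusted p = 8.41e-07) and was 6.58 times higher in MA than in GC (2.72 ± 0.22 SE, adjusted p = 1.86e-06). Between DFOG and GC the difference was -0.36, with a 95% interval from -0.89 to 0.17 (adjusted p = 0.353). Without DFOG replicate 1, which leaves 1 DFOG sample, the mean of replicates 2 and 3, the difference was -0.83. DFAT and DFOG differed by -0.17, with an interval from -0.70 to 0.36.

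The MHC class II genes that CD74 works with moved in the same comparison. Of 13 measured genes of class II presentation, CD74 included, 8 fell in DFAT and 2 rose, with a median log2 change of -0.71. Among all named genes 20.4% fell in DFAT and 20.7% rose. SLA-DRA, the alpha chain of the DR molecule, averaged 4.50 ± 0.10 in DFAT and 8.22 ± 0.46 in MA (SD, n = 3 each), a change of -3.72 ± 0.22 (SE, adjusted p = 3.65e-07). The chains SLA-DQB1, SLA-DRB1 and SLA-DQA1 changed by -2.77, -2.57 and -2.01. None of these 4 chains passed the test between DFOG and GC, and all 4 were higher in MA than in GC, by 2.20 to 3.62. Over the 13 genes, 9 were higher in MA than in GC and 2 lower, where 26.8% of all named genes were higher and 22.6% lower. In DFOG 2 of the 13 rose while 1 fell, where 17.3% of all named genes rose and 13.4% fell.

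Other genes of the same route behaved differently. IFI30, the lysosomal thiol reductase that opens disulphide bonds of antigens, rose by 4.01 ± 0.22 (SE, adjusted p = 2.10e-07) to 11.01 ± 0.11 in DFAT, against 7.01 ± 0.29 in MA (SD, n = 3 each), and RFXANK, a subunit of the factor that binds class II promoters, rose by 1.10. IFI30 also rose in DFOG, by 2.94. SLA-DMA, which helps load peptide, averaged 9.40 ± 0.24 in DFAT, 9.71 ± 0.16 in MA, 9.33 ± 0.22 in DFOG and 12.15 ± 0.29 in GC (SD, n = 3 except DFOG, n = 2), and fell in DFOG by 2.81. CIITA, the master activator of class II genes, had a change of -0.23 in DFAT (adjusted p = 0.462).

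C1QC had the widest spread in MA. Its log2 level was 3.47, 3.37 and 3.64 in DFAT, against 4.74, 8.12 and 8.40 in MA. DFOG had 3.49 and 3.19 (replicate 1, and the mean of 2 and 3), against 3.55, 3.41 and 3.57 in GC. MA replicate 1 lay 3.52 below the mean of the other MA arrays, yet above every DFAT, DFOG and GC sample. Its value of 4.74 was near the lower quartile of that array (4.61), so it cannot be told from background. C1QC fell in DFAT by 12.1 times (-3.59 ± 0.73 SE, adjusted p = 0.00271), and the change was -4.76 without MA replicate 1 (adjusted p = 1.12e-07), -3.08 without MA replicate 2 (adjusted p = 0.0155) and -2.94 without MA replicate 3 (adjusted p = 0.0136). With the actin 3′ minus 5′ control difference as a covariate the change was -5.44 (adjusted p = 0.00275). The difference between MA and GC was 3.57 ± 0.73 (SE, adjusted p = 0.00212), or 4.75 without MA replicate 1 (adjusted p = 5.70e-08), 3.06 without MA replicate 2 (adjusted p = 0.0123) and 2.92 without MA replicate 3 (adjusted p = 0.0108). DFOG and GC differed by -0.17, with a 95% interval from -1.96 to 1.62, and DFAT and DFOG by 0.15, with an interval from -1.64 to 1.94, since all groups share 1 estimate of the spread, which MA replicate 1 enters.

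Of 11 measured complement genes, C1QC included, 7 fell in DFAT and 1 rose, with a median log2 change of -1.41. Among all named genes 20.4% fell in DFAT and 20.7% rose. C1QA, the chain that joins C1QC in C1q, averaged 4.57 ± 0.07 in DFAT and 6.22 ± 0.98 in MA (SD, n = 3 each), a change of -1.65 ± 0.37 (SE, adjusted p = 0.00532). CFD, the adipocyte protease adipsin that acts in the alternative pathway, changed by -2.31, and C2, a protease subunit of the classical convertase, by -1.85. C1R, the protease that C1q activates, rose by 2.18 ± 0.53 (SE, adjusted p = 0.00774), while its partner C1S had 11.71 ± 1.30 in DFAT and 10.78 ± 0.42 in MA (SD, n = 3 each, adjusted p = 0.216). C1R and C1S are also made by fibroblasts, and the 2 genes were higher in MA than in GC by 3.26 and 5.39. Over the 11 genes, 8 were higher in MA than in GC and none lower, where 26.8% of all named genes were higher and 22.6% lower. In DFOG 1 of the 11 fell and none rose, where 13.4% of all named genes fell and 17.3% rose.

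CD163 lay at 4.53, 4.14 and 4.17 in DFAT, against 6.04, 6.14 and 6.52 in MA. DFOG had 4.34 and 4.30, against 4.04, 4.23 and 4.31 in GC. The 3 low groups overlapped each other, and the lowest MA array was well above all of them. CD163 fell in DFAT by 3.87 times (-1.95 ± 0.17 SE, adjusted p = 7.26e-06) and was 4.11 times higher in MA than in GC (2.04 ± 0.17 SE, adjusted p = 3.44e-06). Between DFAT and DFOG it differed by -0.04, with a 95% interval from -0.47 to 0.39, and between DFOG and GC by 0.12, with an interval from -0.31 to 0.55, a sign that turned with the poly-A centring (-0.67). In the list of haemoglobin scavenging and iron genes, 3 of 10 measured members fell in DFAT and 2 rose (median -0.26). Of all named genes 20.4% fell in DFAT and 20.7% rose, so these counts are near those shares. In DFOG 1 of the list fell and 1 rose, where 13.4% of all named genes fell and 17.3% rose. HMOX1, which breaks down the haem that CD163 brings in, rose by 2.93 ± 0.19 (SE, adjusted p = 6.33e-07), the transferrin receptor TFRC rose by 2.14, and NCOA4, which targets ferritin to lysosomes, fell by 1.23.

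LAPTM5 lay at 3.19, 3.14 and 3.23 in DFAT, against 5.90, 5.25 and 5.86 in MA. DFOG had 3.30 and 3.50, against 3.18, 3.48 and 3.73 in GC. The MA arrays lay above all other samples, and GC overlapped DFAT and DFOG. The MA level itself was under the median of all probe sets, and the other samples were under the lower quartile. LAPTM5 fell in DFAT by 5.58 times (-2.48 ± 0.20 SE, adjusted p = 3.71e-06) and was 4.61 times higher in MA than in GC (2.20 ± 0.20 SE, adjusted p = 5.81e-06). DFOG and GC differed by -0.06, with a 95% interval from -0.56 to 0.43, and DFAT and DFOG by -0.21, with an interval from -0.71 to 0.28.

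Of 14 measured genes of white blood cells in general, LAPTM5 included, 3 fell in DFAT and 1 rose. Their median difference was -0.18, with a range from -2.48 to 1.80. The share of falls was near the 20.4% of all named genes, of which 20.7% rose. In MA 5 of the 14 were higher than in GC and 1 lower, where 26.8% of all named genes were higher and 22.6% lower. CD53, a tetraspanin of white blood cells, averaged 3.93 ± 0.23 in DFAT and 5.74 ± 0.58 in MA (SD, n = 3 each), a change of -1.81 (adjusted p = 0.000241). CXCR4, a chemokine receptor that many cell types carry, changed by -1.62. PTPRC, the common white blood cell antigen CD45, lay at 3.36 ± 0.14 in DFAT, 3.49 ± 0.11 in MA, 3.49 ± 0.01 in DFOG and 3.48 ± 0.10 in GC (SD, n = 3 except DFOG, n = 2), all under the lower quartile of the arrays.

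CD14 followed another order. Its log2 level was 6.54, 6.01 and 6.33 in DFAT, against 6.27, 6.66 and 6.94 in MA. DFOG had 6.96 and 6.52, against 5.29, 5.16 and 5.11 in GC. The DFAT, MA and DFOG samples overlapped, and GC lay below all of them. The difference between DFAT and MA was -0.33 ± 0.21 (SE, adjusted p = 0.273), with a 95% interval from -0.80 to 0.13, and its sign turned with the poly-A centring (0.30). CD14 rose in DFOG by 2.94 times (1.55 ± 0.23 SE, adjusted p = 0.000556) and was 2.71 times higher in MA than in GC (1.44 ± 0.21 SE, adjusted p = 0.000211). Between DFAT and DFOG it differed by -0.45, with a 95% interval from -0.97 to 0.07.

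The genes that act with CD14 in endotoxin recognition split. Of 11 measured, CD14 included, 4 fell in DFAT and none rose, with a median of -0.33, where 20.4% of all named genes fell. In DFOG 3 rose while 1 fell, where 17.3% of all named genes rose and 13.4% fell. TLR4, the signalling receptor, averaged 6.45 ± 0.16 in DFAT and 9.02 ± 0.62 in MA (SD, n = 3 each), a change of -2.57 ± 0.27 (SE, adjusted p = 2.44e-05), and had a difference of 0.19 between DFOG and GC (adjusted p = 0.747). LY96, the small protein that holds endotoxin on TLR4, was at 9.26 ± 0.40 in DFAT and 9.70 ± 0.09 in MA (SD, n = 3 each, adjusted p = 0.244). It rose in DFOG by 4.95 (adjusted p = 5.25e-07), to 9.46 ± 0.20 in DFOG (SD, n = 2), against 4.50 ± 0.50 in GC (SD, n = 3). Like CD14, LY96 was low in GC alone.

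GPNMB moved in both cultures, in opposite directions. It had 7.61, 8.81 and 9.11 in DFAT, against 11.71, 11.58 and 11.42 in MA. DFOG had 8.94 and 8.07, against 6.13, 4.45 and 5.96 in GC. MA lay above all other samples, GC below all of them, and DFAT and DFOG overlapped between. GPNMB fell in DFAT by 8.34 times (-3.06 ± 0.47 SE, adjusted p = 0.00042) and rose in DFOG by 7.95 times (2.99 ± 0.52 SE, adjusted p = 0.00157). In MA it was 66.6 times higher than in GC (6.06 ± 0.47 SE, adjusted p = 1.58e-06). DFAT and DFOG differed by 0.01, with a 95% interval from -1.15 to 1.16.

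**Figure D2:**
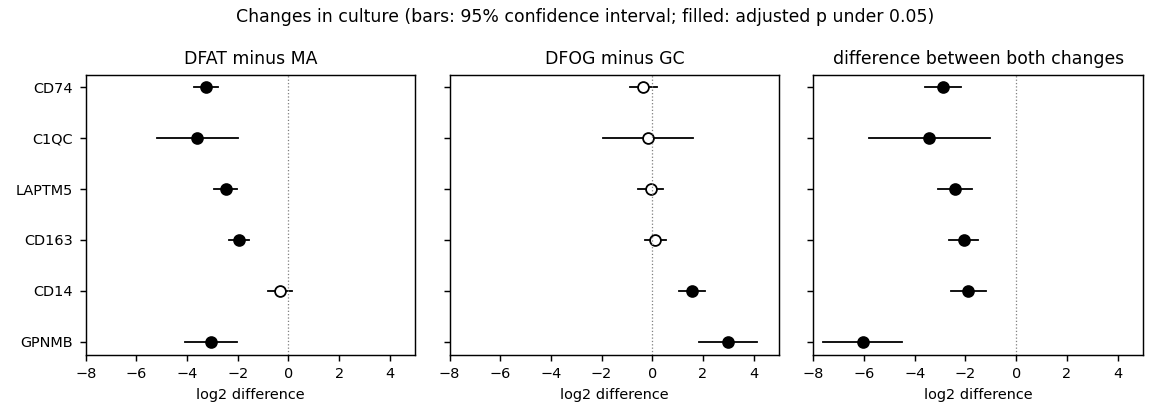
Log2 differences of the 6 markers (points) with 95% confidence intervals (bars) for DFAT minus MA, DFOG minus GC and the difference between both changes; filled points have an adjusted p under 0.05. In DFAT 5 markers are lower, in DFOG CD14 and GPNMB are higher, and the difference between both changes is below 0 for each marker, with the widest interval for C1QC.

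The difference between both changes, DFAT minus MA less DFOG minus GC, was tested in the same fit. It was below 0 and passed for all 6 markers, against 11.7% of all probe sets and 15.9% of named genes that passed in this direction (11.6% and 13.2% passed in the other). It was -6.05 ± 0.70 for GPNMB (SE, adjusted p = 0.000112), whose changes ran in opposite directions, and -1.89 ± 0.32 for CD14 (SE, adjusted p = 0.0013), which rose in DFOG alone. For C1QC it was -3.42 ± 1.09 (SE, adjusted p = 0.0429). The call was lost without MA replicate 2 (adjusted p = 0.1) or 3 (0.0921) and without any 1 of the DFAT or GC replicates (0.0632 to 0.0798). It was also lost after a second quantile normalization (0.0551). Without DFOG replicate 1, which leaves 1 DFOG sample, the C1QC difference was -3.27. With the poly-A centring LAPTM5, CD163 and CD14 no longer passed, at -1.0, -0.66 and -0.46. For C1QC, LAPTM5 and CD163 the GC means (3.51, 3.46 and 4.19) already lay under the lower quartile of the arrays. A fall in DFOG could not have shown there, so for these genes the test largely repeats DFAT minus MA (-3.59, -2.48 and -1.95).

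Genes of lysosomes and of lipid-laden macrophages, 2 groups that GPNMB is known from, were counted beside it. Of 24 measured lysosome genes 6 fell in DFAT and 2 rose (median -0.05), where 20.4% of all named genes fell and 20.7% rose. In DFOG 7 rose and 1 fell, where 17.3% of all named genes rose and 13.4% fell. LIPA, the lysosomal acid lipase, averaged 8.0 ± 0.26 in DFAT and 12.43 ± 0.09 in MA (SD, n = 3 each), a change of -4.43 ± 0.16 (SE, adjusted p = 1.24e-08), and the cholesterol exporter NPC1 changed by -2.33. GUSB, the beta-glucuronidase, rose by 3.18 and GLB1, the beta-galactosidase, by 0.77. Of 10 lipid-laden macrophage genes, GPNMB included, 7 fell and 2 rose (median -1.61), while in DFOG 7 rose and none fell. Those that fell included LPL (-5.42) and APOE (-3.27), which adipocytes also express, and those that rose were SPP1 or osteopontin (5.71) and the lectin LGALS3 (4.80), which also rose in DFOG by 5.47 and 4.87.

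The probe sets of a gene did not always move together. The second probe set of LAPTM5 averaged 3.06 in DFAT and 3.13 in MA, and that of CD163 averaged 3.31 in DFAT and 3.59 in MA. Both lay under the lower quartile of the arrays in every group and neither passed in any of the comparisons DFAT minus MA, DFOG minus GC and MA minus GC. The second probe set of CD14 averaged 5.56 in DFAT, 5.79 in MA, 5.49 in DFOG and 5.32 in GC. It did not pass either (adjusted p = 0.658 for DFOG minus GC and 0.0682 for MA minus GC), so the CD14 rise in DFOG rests on 1 probe set. The difference between both changes did not pass on the second probe set of LAPTM5 (-0.28, adjusted p = 0.413), CD163 (-0.30, 0.475) or CD14 (-0.39, 0.379). For each of these genes that call rests on 1 probe set.

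GPNMB had 5 probe sets, and 4 of them fell in DFAT, by log2 changes of -0.88 to -3.81. The one that did not pass changed by -0.67, and the mean over the 5 changed by -2.29. All 5 were higher in MA than in GC, by 0.80 to 6.06. The rise of GPNMB in DFOG passed on 1 of the 5 probe sets, the brightest, and the other 4 had differences of 0.23 to 1.0 between DFOG and GC. CD74 and C1QC had 1 probe set each.

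**Figure D3:**
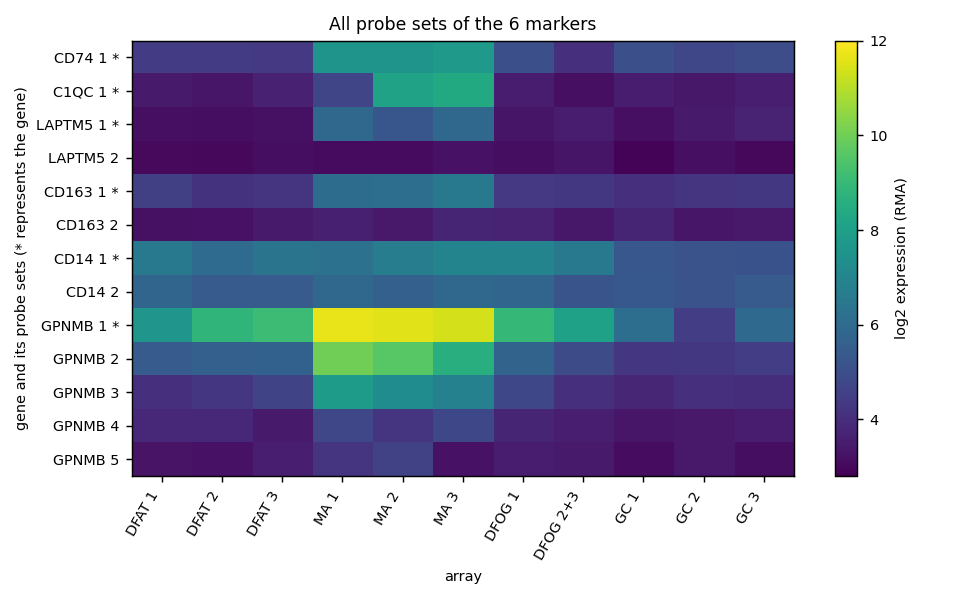
Log2 expression (colour) of all 13 probe sets of the 6 markers (rows, with an asterisk on the one that represents the gene) on each sample (columns). The second probe sets of LAPTM5 and CD163 stay under 4 on every sample, while 3 of the 5 GPNMB probe sets are bright in MA.

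A wider list of macrophage and monocyte genes, without the 6 markers, had 30 measured members. Of these 12 fell in DFAT and 2 rose (median log2 change -0.38), where 20.4% of all named genes fell and 20.7% rose. In MA 14 were higher than in GC and 1 lower (median 0.44), where 26.8% of all named genes were higher and 22.6% lower. In DFOG 2 of the 30 rose and 1 fell, where 17.3% of all named genes rose and 13.4% fell. Besides LIPA, ALOX5AP, the protein that feeds 5-lipoxygenase, averaged 6.33 ± 0.26 in DFAT and 8.89 ± 0.20 in MA (SD, n = 3 each), a change of -2.56 (adjusted p = 1.33e-05). FCGR2B, an inhibitory receptor for IgG, changed by -2.0, and the mannose receptor MRC1 by -1.74. The members that rose were CD86, a costimulatory receptor, with 9.36 ± 0.39 in DFAT and 5.99 ± 0.05 in MA (SD, n = 3 each; change 3.37 ± 0.19 SE, adjusted p = 2.39e-07), and CYBA, a subunit of the NADPH oxidase that other cells also express (2.29).

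Some defining members did not pass in part of the comparisons. ITGAM, the integrin CD11b, averaged 3.69 ± 0.07 in DFAT, 4.10 ± 0.29 in MA, 3.64 ± 0.01 in DFOG and 3.69 ± 0.29 in GC (SD, n = 3 except DFOG, n = 2), and TYROBP, a signalling adaptor, was at 6.86 ± 0.81 in DFAT and 6.21 ± 0.35 in MA (SD, n = 3 each, adjusted p = 0.207). SPI1, the myeloid transcription factor PU.1, fell in DFAT by 1.98 (adjusted p = 0.000398) and in DFOG by 1.90 (adjusted p = 0.00172), and averaged 6.75 ± 0.73 in MA and 6.70 ± 0.15 in GC (SD, n = 3 each, adjusted p = 0.918). The mean log2 level of the 30 genes ranged over the samples from 5.91 to 6.06 in DFAT, 6.31 to 6.69 in MA, 5.64 to 5.65 in DFOG and 5.52 to 5.71 in GC.

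Markers of other cells were counted in the same comparison, where 20.4% of all named genes fell in DFAT and 20.7% rose, so that the counts of falls among lymphocyte genes are near that share. Endothelial cells had 4 of 11 measured genes fall in DFAT and 1 rise, and the differences of the 11 ran from -1.65 to 1.99. Lower in DFAT were PECAM1 at -1.65, CLDN5 at -1.55 and CDH5 at -1.06. PECAM1 rose in DFOG by 1.77, as CD14 and GPNMB did. The mean endothelial level was 5.49 to 5.61 in DFAT and 5.74 to 6.23 in MA. Lymphocytes had 3 of 12 fall and none rise, and their mean level was 4.45 to 4.64 in DFAT and 4.99 to 5.25 in MA. CD247, a chain of the T cell receptor complex, changed by -4.26, with 6.32 ± 0.15 in DFAT, against 10.58 ± 0.11 in MA (SD, n = 3 each), while CD3E was at 4.14 ± 0.16 in DFAT and 4.56 ± 0.21 in MA (adjusted p = 0.0781). Neutrophils and mast cells had 2 of 6 fall, and erythrocytes 1 of 3. Of 8 stromal cell genes 6 rose and none fell, and of 12 adipocyte genes all 12 fell. The part of these other cells in the marker changes was not tested.

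**Figure D4:**
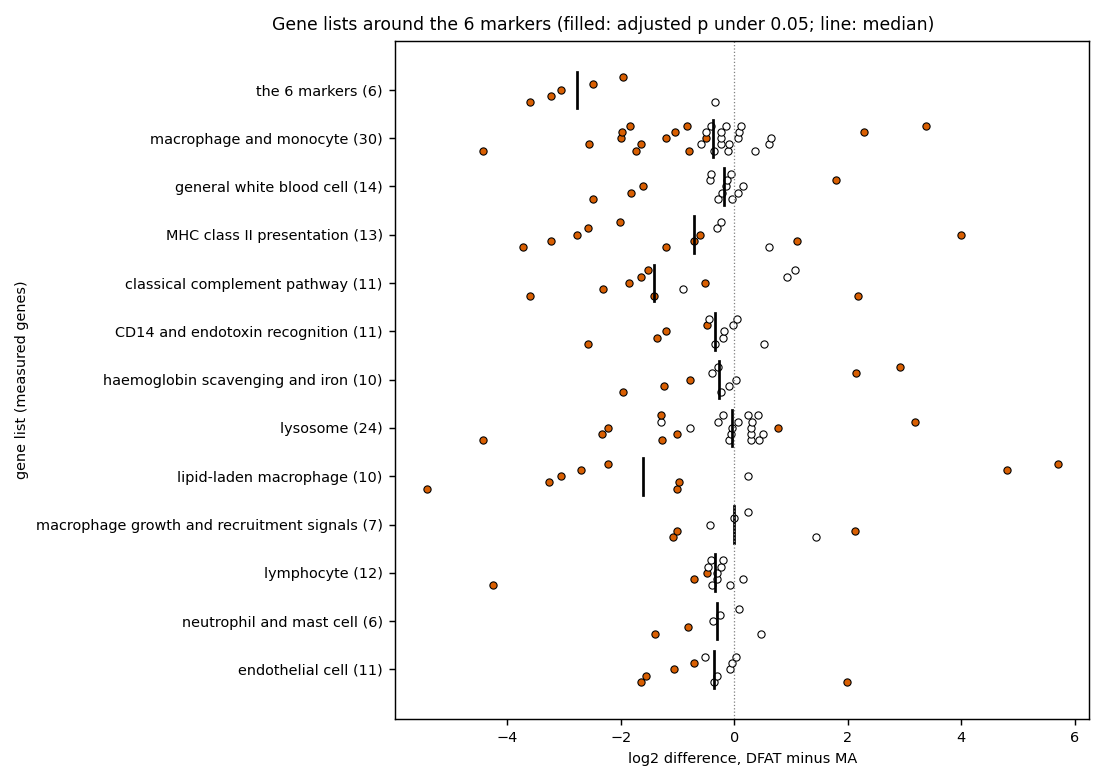
Log2 difference DFAT minus MA of each measured gene (points, filled where the adjusted p is under 0.05) in the 6 markers and in 12 gene lists, with the median of a list as a line. The 6 markers have a median of -2.77, while the wider lists hold genes on both sides of 0, such as IFI30 at 4.01 and CD86 at 3.37.

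The 3 MA arrays did not rank the markers alike. MA replicate 1 had the lowest MA value of CD74, C1QC, CD163 and CD14 and the highest of LAPTM5 and GPNMB. Over all probe sets MA replicate 1 was the lowest of the 3 in 39.2% and the highest in 34.0%. Of the 11 complement genes it was the lowest in 10, and of the 30 wider macrophage genes in 19. Of the 13 class II genes it was the lowest in 5 and the highest in 5, and of the 11 endothelial genes it was the highest in 9. These counts describe 1 array and were not tested.

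Genes named for MA replicate 1 were chosen after their values were seen. It had 5.16 for C1QA, against 6.43 and 7.08 in MA replicates 2 and 3. CD209, a lectin of macrophages and dendritic cells, was at 5.31, against 6.99 and 7.01 in the same arrays, and SPI1 at 5.93, against 6.98 and 7.33. SLA-DRA went the other way with 8.74, against 7.87 and 8.06, as did PECAM1 with 9.39, against 8.34 and 8.57. Stromal genes were also low on this array, with 6.15 for lumican LUM, against 8.67 and 8.91, and 6.22 for THY1, against 8.03 and 8.44. Only 1.62% of all probe sets lay more than 1 below the mean of the other 2 MA arrays, against 1 of the 6 markers (C1QC), 4 of 11 complement genes, 3 of 30 macrophage genes and 3 of 8 stromal genes. The actin control reads 1 transcript near both ends, and the gap between its 3′ and 5′ probe sets widens with degraded or incompletely copied RNA. That gap was 2.48 on MA replicate 1, against 1.67 and 1.5 on the others, and averaged 0.61 ± 0.33 in DFAT, 1.88 ± 0.52 in MA, 0.39 ± 0.33 in DFOG and 1.35 ± 0.55 in GC (SD, n = 3 except DFOG, n = 2). Its part in the C1QC value was not tested.

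**Figure D5:**
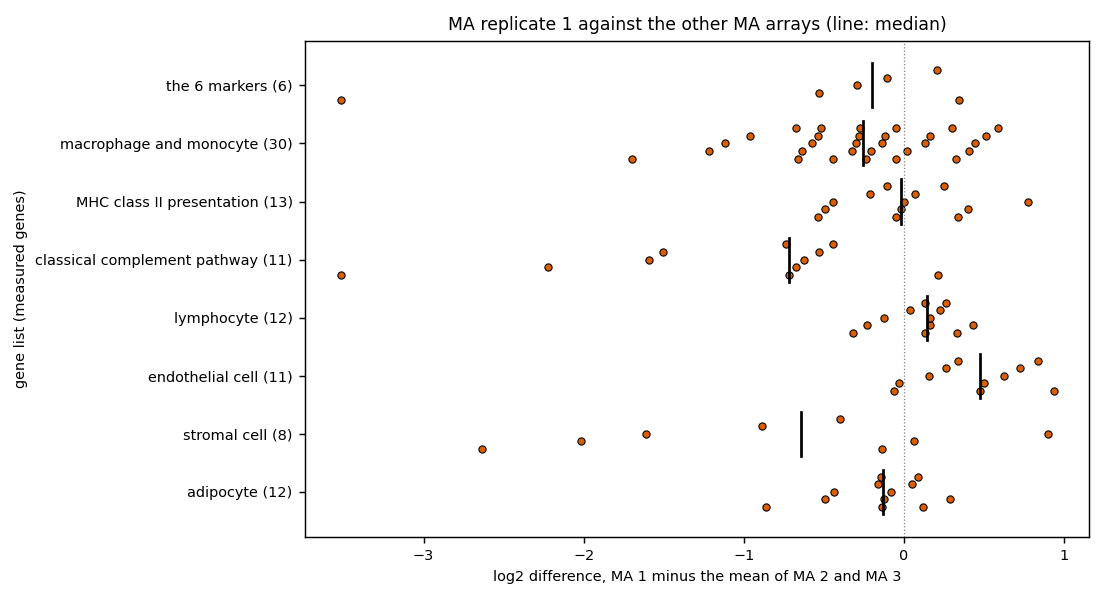
Log2 difference between MA replicate 1 and the mean of MA replicates 2 and 3 for each measured gene (points) of 8 lists, with the median as a line. C1QC lies at -3.52, complement and stromal genes lie mostly below 0, and endothelial genes mostly above 0.

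Profiles were compared over the 11 samples by the root mean square difference after each gene's own mean was subtracted. The measure is not scaled, so it depends on the size of the changes as well as on their pattern. The root mean square about a gene's own mean was 0.65 for CD14, 0.89 for CD163, 1.06 for LAPTM5 and 1.37 for CD74. For C1QC it was 1.84 and for GPNMB 2.30. Among the markers, LAPTM5 and CD163 were closest (0.29), then CD74 and LAPTM5 (0.45) and CD74 and CD163 (0.57), and CD14 and GPNMB were farthest apart (1.84). Of 6561 other named genes, the closest to CD74 were ITIH1 (0.30), RUNDC3B (0.33) and SLA-DQB1 (0.34), and those closest to LAPTM5 were UBD (0.21), MYO5B (0.26) and SLA-DQB1 (0.27). C1QC had C4BPA (0.53), CYP2A19 (0.54) and ELMOD3 (0.71), of which C4BPA and CYP2A19 lay 2.07 and 2.40 lower on MA replicate 1 than on the other MA arrays. CD163 had BIVM (0.20), SLC25A36 (0.21) and EGFLAM (0.21).

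The genes closest to the other markers showed other profiles. CD14 had MRPS34 (0.24), CCNC (0.24) and DYNLT3 (0.25), which like CD14 were low in GC alone, with group means of 10.42 in DFAT, 10.40 in MA, 10.69 in DFOG and 8.79 in GC for DYNLT3. GPNMB had HSPA12A (0.67), ABHD5 (0.72) and ALDOC (0.75), and ABHD5, the coactivator of the adipocyte triglyceride lipase, averaged 7.58 in DFAT, 10.16 in MA, 6.53 in DFOG and 3.96 in GC. These matches describe likeness over the samples, which share arrays and groups.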

How the data were processed

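The authors deposited log2 expression values. The submitters' processing notes name RMA (robust multi-array averaging), whose version and settings are not given in the sources used here. RMA sets arrays to a common distribution, so a change is relative to all other RNA measured. Of 24123 probe sets, 124 controls were left out. Names came from the platform annotation: 10069 tested probe sets had 1 symbol, 198 several and 13732 none. No sequences or coordinates were used.

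One mean per group was fitted with limma 3.58.1 in R 4.3.3 over 11 samples (7 residual degrees of freedom). Tests were two-sided, with p-values adjusted by Benjamini-Hochberg over 23999 probe sets, and genes were said to rise or fall at an adjusted p below 0.05. The procedure was tested on simulated data. Figures used Python 3.11.15 with matplotlib 3.10.9. The number of arrays limits the precision, and neither the labels nor the file give batches. The markers and gene lists were chosen with earlier results of these data known. Named genes include up to 4 called genes of each list with the strongest DFAT minus MA difference. Others moved against most of their list, were defining markers or were among the 3 closest profiles of each marker. The 1 endothelial gene and the 1 general white blood cell gene that rose in DFAT are not named. Other scalings, filters, weights, covariates and left-out samples were tried.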

Additional observations from a re-analysis of the deposited data

Results flagged for a closer look

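The change of each marker differed between fat cells and granulosa cells in the test of the difference itself (DFAT minus MA, less DFOG minus GC). The log2 difference was -2.88 for CD74 (adjusted p = 8.67e-05), -3.42 for C1QC (adjusted p = 0.0429), -2.42 for LAPTM5 (adjusted p = 0.000185), -2.08 for CD163 (adjusted p = 0.000193), -1.89 for CD14 (adjusted p = 0.0013) and -6.05 for GPNMB (adjusted p = 0.000112). All MA arrays were above all DFAT arrays for 5 of the 6, CD14 being the exception. The C1QC call was lost in 10 of its 19 alternatives, among them the fit without DFOG replicate 1, which left 1 DFOG sample. The calls of LAPTM5, CD163 and CD14 were lost under poly-A centring (adjusted p = 0.078, 0.224 and 0.382). The second probe sets of LAPTM5, CD163 and CD14 did not pass this test (adjusted p = 0.413, 0.475 and 0.379). C1QC, LAPTM5 and CD163 already lay under the lower quartile of the arrays in GC. For them a fall in DFOG could not have shown, and the test cannot tell a difference between the cell types. Groups of 3 arrays are too small for the test of single outlying samples, so MA replicate 1 was not assessed by it for C1QC.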

How the results depend on the processing

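Over 21 alternatives, 591 of 609 marker differences kept their side of the threshold, 16 lost the call and 2 gained one. No called difference changed sign, and 13 uncalled ones did, among them CD14 in DFAT minus MA (0.30) and CD163 in DFOG minus GC (-0.67) with poly-A centring, CD74 in DFAT minus DFOG without DFOG replicate 1 (0.30) and LAPTM5 in DFOG minus GC with the actin covariate (0.24). Leaving out single samples other than DFOG replicate 1 gave 5 to 5 markers called in DFAT minus MA, 6 to 6 in MA minus GC and 2 to 2 in DFOG minus GC. It gave 5 to 6 in the difference between both changes and 0 to 0 in DFAT minus DFOG, with 9 to 13 macrophage and 6 to 8 class II genes lower in DFAT. Without DFOG replicate 1 only 1 DFOG sample is left, so its counts are not given. Centring arrays on the poly-A spike-in controls moved the median of all probe sets to 0.56 in DFAT minus MA, -0.81 in DFOG minus GC, -1.27 in MA minus GC and 1.37 in the difference between both changes. All changes shifted with it, which left 6 macrophage and 5 class II genes lower in DFAT and 3 markers called in the difference between both changes. CD163 (0.69, adjusted p = 0.0529) and CD14 (0.09, adjusted p = 0.792) no longer passed in MA minus GC, nor CD14 in DFOG minus GC (0.76, adjusted p = 0.0797), while CD74 passed there (-1.15, adjusted p = 0.0188). That centring also called 6884 probe sets higher and 1340 lower in DFAT, against 3765 and 3941, 10417 in DFOG minus GC against 5971 (1062 higher, against 2958), 20211 in MA minus GC against 9713 (1146 higher, against 4976) and 16761 in the difference between both changes against 5593 (16040 higher, against 2775). Leaving out probe sets with a mean under 5 removed C1QC, LAPTM5 and CD163, so that 2 markers stayed called in DFAT minus MA, 3 in MA minus GC and 3 in the difference between both changes, with 6 macrophage genes lower. With the actin covariate 5 class II genes were lower in DFAT. With only the compared groups fitted, 1025 probe sets were called in DFAT minus DFOG, against 1921.

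Replicate numbers share only a label. In DFAT and MA the deviations of same-numbered arrays correlated at 0.10, 0.17 and 0.13 over probe sets, and each array correlated best with its own number, a hint from the data and not the design. In DFOG and GC they correlated at 0.60, 0.51 and 0.36. Here DFOG 2 and 3 entered as separate arrays though nearly identical, so 0.51 and 0.36 are not independent of each other. A replicate block over the 12 arrays changed no marker's call (5 called in DFAT minus MA, 6 in MA minus GC) and gave 2947 calls in DFAT minus DFOG, where the 12 arrays as separate samples without the block already gave 2757. Causes of these shifts were not tested.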

Other observations

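Genes that draw or feed macrophages were described in the same samples. Of 7 measured, 2 fell in DFAT and 1 rose, near the 20.4% of all named genes that fell and the 20.7% that rose. IL34, a ligand of the macrophage growth factor receptor, averaged 6.95 ± 0.05 in DFAT and 8.02 ± 0.25 in MA (SD, n = 3 each), a log2 change of -1.08 (limma adjusted p = 0.00217), and the chemokine CCL8 changed by -1.01. MIF, a cytokine that binds CD74, rose by 2.13 ± 0.16 (SE, adjusted p = 1.73e-06), to 12.18 ± 0.17 in DFAT, against 10.05 ± 0.13 in MA (SD, n = 3 each). The monocyte chemokine CCL2 was at 12.63 ± 1.0 in DFAT and 11.18 ± 0.86 in MA (SD, n = 3 each, adjusted p = 0.0512). In granulosa cells CCL2 rose by 8.33 (adjusted p = 1.62e-06), to 12.40 ± 0.71 in DFOG (SD, n = 2), against 4.07 ± 0.21 in GC (SD, n = 3).

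Of 4 measured pigment cell genes beside GPNMB, 1 fell in DFAT, near the 20.4% of all named genes that fell. The gene that fell was MITF, a transcription factor of pigment cells and osteoclasts, with 7.30 ± 0.61 in DFAT and 9.52 ± 0.20 in MA (SD, n = 3 each; change -2.22, adjusted p = 0.000221), and between DFOG and GC it differed by 0.25 (adjusted p = 0.712).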
